A study of Mus musculus with 18 samples.

Results

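The colon of mice that lack *Cldn2*, the gene for the tight junction protein claudin-2, was compared between treatments. Animals given azoxymethane with dextran sulfate sodium (AOM/DSS) were set against animals in the recovery phase after DSS colitis. The comparison holds 6 of the 18 RNA-Seq libraries of a mouse study on claudin-2 in mucosal healing and colitis-associated cancer. They are the 3 *Cldn2*KO AOM/DSS libraries and the 3 *Cldn2*KO recovery libraries, chosen by their genotype and treatment labels. The mice are described as C57BL/6 and the WT animals as littermates of the *Cldn2*KO animals. The AOM/DSS group received 1 dose of 10 mg AOM per kg body weight and 3 cycles of 2.5% DSS, and is labelled as colitis-associated cancer of the colon. The recovery group is labelled DSS-Recovery, and the labels give no regimen of its own, since they carry the AOM/DSS protocol for every library. The name gives a phase and not a healed colon, as the study reports impaired recovery, with lasting weight loss and deaths, in *Cldn2*KO mice. Both groups lacked *Cldn2* and had been exposed to DSS, so that the comparison covers AOM, the repeated cycles and the time since injury together. The labels name the tissue of both groups only as colon, and do not say whether tumor or surrounding mucosa was taken from the AOM/DSS animals. The WT AOM/DSS and WT recovery libraries, 3 of each, are set beside the *Cldn2*KO ones where the genotypes are compared, and untreated mice were not used.

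DSS is a polymer that injures the colonic epithelium, and mice that drink it lose barrier function and then rebuild the mucosa from crypt cells. AOM is a carcinogen that damages DNA in the colonic epithelium, and its combination with repeated DSS gives tumors that mostly carry an active Wnt/β-catenin pathway. Claudin-2 forms cation- and water-permeable pores between epithelial cells and is found mainly in crypts. The colon is patterned along its length by *Hox* genes, with the *Hox13* group marking its distal end, and by the homeobox factor *Cdx2*, while absorptive, secretory and endocrine genes also differ from its proximal to its distal end.

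Depth was even between the groups, with 18.9 to 27.4 M counted reads in *Cldn2*KO AOM/DSS and 20.1 to 22.8 M in *Cldn2*KO recovery libraries. Levels are given as counts per M reads after TMM scaling (CPM), in the order of replicates 1, 2 and 3. *Cldn2* (ENSMUSG00000047230, on the plus strand of chromosome X at 139800828 to 139811386 in GRCm38) stood at 0.536, 0.165 and 0.141 CPM in *Cldn2*KO AOM/DSS and at 0.37, 0.557 and 0.395 CPM in *Cldn2*KO recovery, against 126 to 504 CPM in the 6 challenged WT libraries. The 6 libraries followed their genotype label, and the residual *Cldn2* signal was not called between the treatments (log2 fold change -0.77 with SE 0.54, edgeR adjusted p 0.365). *Xist*, transcribed from the inactive X chromosome of females, was at most 0.634 CPM in replicate 1 of both groups and 1396 to 1673 CPM in replicates 2 and 3, so that the sexes were balanced in the same way in both. Among the WT libraries, *Xist* was at most 1.18 CPM in the 3 AOM/DSS libraries and in recovery replicate 1, and 846 and 1761 CPM in recovery replicates 2 and 3, so that sex and treatment were partly tied in WT. On the first principal component of the 6 *Cldn2*KO libraries, which held 68.6% of the variance, AOM/DSS libraries scored 43.7 to 59.0 and recovery libraries -62.2 to -41.9. A library of each group stood apart from its group. *Cldn2*KO AOM/DSS replicate 2 had 47 genes at least 10-fold below both other replicates, against at most 3 in the other *Cldn2*KO libraries, and recovery replicate 3 scored 38.7 on the second component (12% of the variance), where the other 2 scored -26.0 and -3.0. Main results that rest on them are given with and without them. Whether replicates were separate animals is not stated in the labels. The p-values set each difference against the spread between libraries, which may not be a spread between animals. It was estimated over the 12 challenged libraries, WT included.

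Of 16605 genes tested, edgeR called 2873 between *Cldn2*KO AOM/DSS and *Cldn2*KO recovery at an adjusted p under 0.05 (17.3% of genes). Of these, 1432 were higher (8.62%) and 1441 lower (8.68%) in AOM/DSS, and 5138 genes had an unadjusted p under 0.05. The *Cldn2*KO groups did not overlap in CPM for 37.5% of all genes tested. More than 2-fold changes were called in 1159 higher and 971 lower genes, and more than 8-fold changes in 322 and 257. The count of calls was 1867 without AOM/DSS replicate 3 and 1879 without recovery replicate 2, and between 2000 and 2886 without any other *Cldn2*KO library. Across all genes the median log2 fold change was 0.04. The shares of 8.62% higher and 8.68% lower are the background for every list count below. In gene lists of at least 10 tested members, the share of members called higher was largest for posterior *Hox* genes, B and plasma cells, MHC class II and macrophages. The share called lower was largest for small intestinal enterocyte, xenobiotic, anterior and middle *Hox* and fatty acid genes, as the bar plot of called members by list shows. Fewer cells of a type and less RNA per cell cannot be told apart in RNA from whole tissue, and this holds for every list below.

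**Figure D1:**
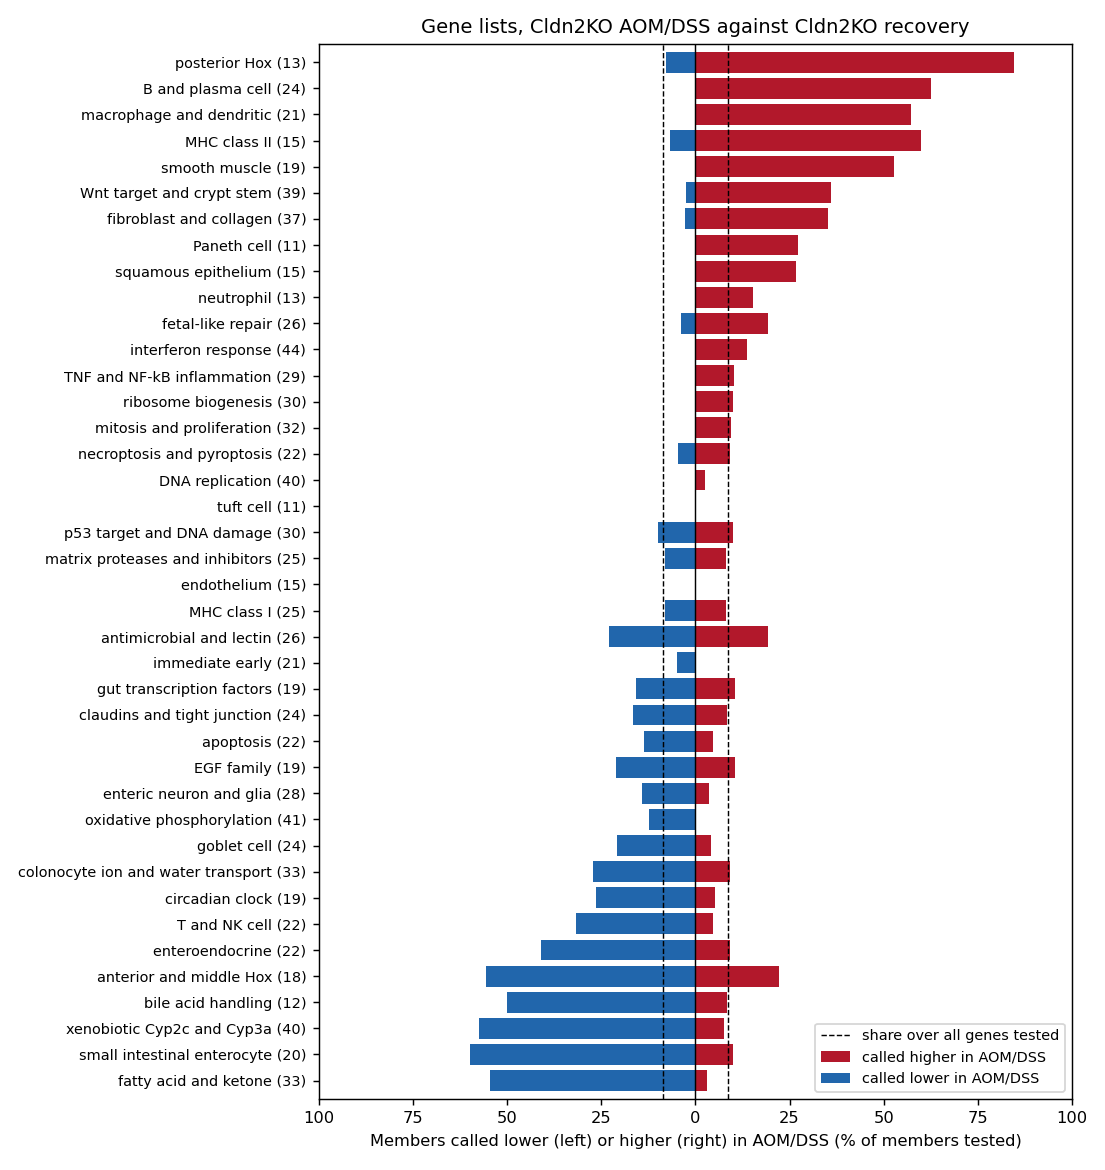
Share of the tested members of each gene list that were called higher (red, to the right) or lower (blue, to the left) in *Cldn2*KO AOM/DSS against *Cldn2*KO recovery (x axis, % of members tested), with the number tested in brackets and dashed lines at the share over all genes (8.62% higher, 8.68% lower). Posterior *Hox* genes head the plot with 11 of 13 members higher, and fatty acid and ketone genes close it with 18 of 33 lower.

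Genes of position along the gut separated the groups. *Hoxd13* (ENSMUSG00000001819, chromosome 2, 74668310 to 74671599, plus strand), which marks the most posterior tissue, stood at 197, 205 and 235 CPM in *Cldn2*KO AOM/DSS and at 0, 0.139 and 0 CPM in *Cldn2*KO recovery. From 16942 and 3 reads in the groups, this is a ratio of 4324 (exact 95% counting interval 1479 to 20970, edgeR adjusted p 2.55e-08). *Hoxb13* (ENSMUSG00000049604, chromosome 11, 96194316 to 96197447, plus strand) stood at 354, 398 and 311 CPM against 0, 0.371 and 0.247 CPM (log2 fold change 10.66 with SE 0.53, edgeR adjusted p 2.31e-07). Each AOM/DSS library expressed these genes and no recovery library exceeded 0.371 CPM. *Hoxa13* rose from 0.106, 0.464 and 0.296 CPM to 51.9, 58.4 and 67.2 CPM (log2 fold change 7.62 with SE 0.45, edgeR adjusted p 8.97e-07).

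The other posterior *Hox* genes moved with them. Of 20 listed members 13 were tested, and 11 were called higher and 1 lower, with a median log2 fold change of 5.53. *Hoxd12*, at 13.7, 15.9 and 15.7 CPM in AOM/DSS, and *Evx2*, which lies beside the *HoxD* cluster, at 7.71, 9.98 and 8.93 CPM, had no read in recovery and were at least 309-fold and 182.5-fold higher (edgeR adjusted p 7.74e-05 and 2.35e-05). *Hottip*, a long non-coding RNA from the distal end of the *HoxA* cluster, had 1702 reads against 1 (ratio 1303, interval 234 to 51510, edgeR adjusted p 1.84e-05). *Hoxa11* was not called (edgeR adjusted p 0.152). *Hoxb9* ran the other way, with 51.9, 46 and 37.2 CPM against 116, 139 and 106 CPM (log2 fold change -1.42 with SE 0.16, edgeR adjusted p 0.000128).

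Genes of the middle of the *Hox* clusters fell in AOM/DSS, but not in every cluster. Of 18 tested anterior and middle *Hox* genes, 10 were called lower and 4 higher. The lower ones comprised *Hoxb2* to *Hoxb8*, *Hoxc6*, *Hoxd4* and *Hoxd8*. *Hoxb6* stood at 0.683, 2.27 and 1.62 CPM in AOM/DSS against 99.2, 44.1 and 66.3 CPM in recovery (log2 fold change -5.48 with SE 0.43, edgeR adjusted p 7.04e-06), and *Hoxb8* at 0.39, 0.724 and 0.281 CPM against 30, 16.6 and 23.4 CPM. *Hoxc6* had 33 reads in recovery and none in AOM/DSS, at least 14.4-fold lower, and lost its call without AOM/DSS replicate 3. The 4 higher genes were all of the *HoxA* cluster, *Hoxa5*, *Hoxa6*, *Hoxa7* and *Hoxa9*. *Hoxa9* rose from 1.8, 1.3 and 4 CPM to 63, 58.7 and 79.8 CPM (log2 fold change 4.83 with SE 0.40). It was counted in this list, while *Hoxb9* of the same paralog group was counted with the posterior genes. *Hoxa7* lost its call without AOM/DSS replicate 3, recovery replicate 1 or recovery replicate 2. *Hoxb6*, *Hoxa5*, *Hoxa6* and *Hoxa7* overlap antisense genes, and reads of the strands cannot be told apart where the counting is not stated to use strand.

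**Figure D2:**
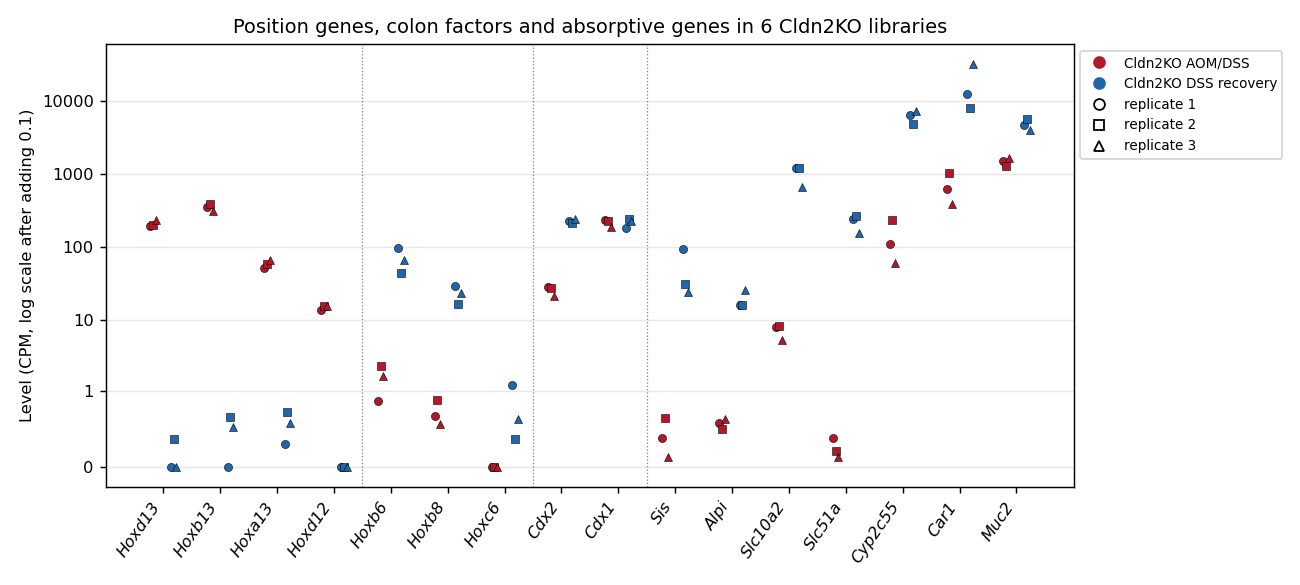
Level of 16 genes in each *Cldn2*KO library (y axis, CPM on a log scale after adding 0.1; red, AOM/DSS; blue, recovery; symbols mark replicates), with posterior *Hox* genes, middle *Hox* genes, colon factors and absorptive or goblet genes from left to right. The 3 AOM/DSS libraries sit at 197 to 235 CPM for *Hoxd13* where recovery libraries reach at most 0.139 CPM, and the groups lie the other way round for *Hoxb6*, *Cdx2* and *Slc10a2*.

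The WT groups held the same contrast, as *Hoxd13* stood at 221 to 229 CPM in WT AOM/DSS and at most 0.12 CPM in WT recovery. The treatment labels and the *Hox* pattern therefore split the challenged libraries of both genotypes in the same way, and treatment and the part of the colon sampled cannot be told apart in any result below. The study describes the recovery RNA as taken from distal colon.

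Markers of the colonic epithelium were present in all 6 libraries, but several were called lower in AOM/DSS, namely *Cdx2*, *Car1*, *Muc2*, *Krt20* and *Cdh17* (log2 fold changes -3.14, -4.67, -1.70, -1.15 and -0.71). *Epcam*, on 1869 to 2363 CPM, *Cdx1*, on 185 to 245 CPM, and *Vil1*, on 486 to 975 CPM, were not called between the groups (edgeR adjusted p 0.404 to 0.978). *Cdx2*, the homeobox factor that sets intestinal identity (ENSMUSG00000029646, chromosome 5, 147300805 to 147307270, minus strand), stood at 29, 27.9 and 21.3 CPM in AOM/DSS and at 231, 214 and 243 CPM in recovery (log2 fold change -3.14 with SE 0.21, edgeR adjusted p 1.71e-06). The groups did not overlap and differed by far more than their spread. Of 19 gut transcription factors tested, 2 were higher, among them *Foxa2* (log2 fold change 1.97), and 3 were lower. Beside *Cdx2* these included *Isx*, which limits vitamin A uptake (8.44, 3.42 and 15.2 CPM against 309, 257 and 198 CPM, edgeR adjusted p 0.000119).

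Genes named for small intestinal absorption were far lower in AOM/DSS. Of 20 tested, 12 were called lower and 2 higher, with a median log2 fold change of -2.12, and 9 to 12 were called lower without any 1 *Cldn2*KO library. *Sis*, which encodes sucrase-isomaltase, stood at 0.146, 0.362 and 0.0352 CPM against 93.8, 31.7 and 24.7 CPM (log2 fold change -8.02 with SE 0.98, edgeR adjusted p 0.000249). *Alpi*, an intestinal alkaline phosphatase, stood at 0.293, 0.23 and 0.352 CPM against 16.4, 16 and 26.2 CPM (edgeR adjusted p 6.52e-06). Recovery libraries had both transcripts and AOM/DSS libraries had almost none. The defining small intestinal genes *Lct*, *Apoa4* and *Slc2a2* were too low to test in any group, and the summed level of the list was 666 to 779 CPM in AOM/DSS against 2814 to 4595 CPM in recovery. The peptide transporter gene *Slc15a1* went against the list, with 111, 121 and 121 CPM in AOM/DSS against 5.39, 4.41 and 2.37 CPM (log2 fold change 4.86 with SE 0.49, edgeR adjusted p 6.01e-05), and so did *Ace* (log2 fold change 1.47).

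*Sis*, *Alpi*, *Slc10a2* and *Fabp2* fell together with *Cdx2*, and their promoters are shown for the core letters that CDX factors bind. The windows run from upstream of to just past the RefSeq start (GRCm38.p6) and are written 5′ to 3′ on the strand of the gene, with each match of TTTATNG on either strand in capitals. They lie at chr3:72967814-72968113 (*Sis*, minus strand), chr1:87101557-87101856 (*Alpi*, minus), chr8:5105238-5105537 (*Slc10a2*, minus) and chr3:122894822-122895121 (*Fabp2*, plus).
Sis: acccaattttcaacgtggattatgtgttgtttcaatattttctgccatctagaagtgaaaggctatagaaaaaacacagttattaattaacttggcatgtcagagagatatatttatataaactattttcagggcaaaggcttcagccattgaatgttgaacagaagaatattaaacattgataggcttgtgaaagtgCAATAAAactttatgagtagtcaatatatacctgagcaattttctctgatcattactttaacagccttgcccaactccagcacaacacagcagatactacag
Alpi: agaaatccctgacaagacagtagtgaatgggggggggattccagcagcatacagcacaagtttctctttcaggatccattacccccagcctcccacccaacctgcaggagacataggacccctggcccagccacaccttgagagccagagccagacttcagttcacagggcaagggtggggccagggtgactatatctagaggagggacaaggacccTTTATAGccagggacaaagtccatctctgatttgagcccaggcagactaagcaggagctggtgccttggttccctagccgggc
Slc10a2: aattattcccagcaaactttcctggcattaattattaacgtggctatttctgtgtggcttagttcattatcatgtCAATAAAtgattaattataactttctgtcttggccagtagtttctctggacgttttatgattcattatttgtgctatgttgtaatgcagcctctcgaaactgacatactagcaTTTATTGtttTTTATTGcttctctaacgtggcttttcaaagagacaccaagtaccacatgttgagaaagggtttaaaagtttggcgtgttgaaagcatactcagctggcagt
Fabp2: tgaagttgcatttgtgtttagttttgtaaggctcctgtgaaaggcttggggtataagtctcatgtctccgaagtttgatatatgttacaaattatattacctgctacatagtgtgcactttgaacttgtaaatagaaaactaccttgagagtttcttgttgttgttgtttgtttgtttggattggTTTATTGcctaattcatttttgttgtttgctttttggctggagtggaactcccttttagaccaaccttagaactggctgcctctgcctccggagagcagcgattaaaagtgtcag
Of the 24 genes of the list with a promoter in the table, 9 (37.5%) held the letters, against 12.5% of all 27025 promoters and 8.93% of those of the genes tested. The share was 11.7% among genes called lower and 13.5% among genes called higher, so that both directions held the letters at a like share. A match describes the sequence and is not a measured site.

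The bile acid carrier genes *Slc51a*, *Slc51b* and *Slc10a2* fell in AOM/DSS, *Slc51a* to near 0. *Slc51a*, which with *Slc51b* forms the basolateral bile acid exporter, stood at 0.146, 0.0659 and 0.0352 CPM in AOM/DSS against 248, 267 and 156 CPM in recovery (log2 fold change -11.41 with SE 0.48, edgeR adjusted p 3.31e-08). *Slc51b* stood at 8.24, 6.72 and 5.03 CPM against 108, 119 and 57.9 CPM (log2 fold change -3.83, edgeR adjusted p 2.35e-05). *Slc10a2*, the apical sodium-dependent uptake carrier, stood at 8.05, 8.26 and 5.27 CPM against 1211, 1222 and 667 CPM (log2 fold change -7.17 with SE 0.47, edgeR adjusted p 1.57e-06). The uptake and export steps thus fell together in each library. The bile acid receptor gene *Nr1h4* fell as well (log2 fold change -2.09, edgeR adjusted p 0.000355), and *Klb*, the co-receptor for FGF15, rose from 0.898, 1.3 and 0.543 CPM to 3.61, 6.82 and 5.56 CPM (log2 fold change 2.54, edgeR adjusted p 0.0115). In all, 6 of 12 tested members were called lower and 1 higher.

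Genes of drug, steroid and lipid oxidation were lower on a broad front. Of 40 xenobiotic genes, 23 were called lower and 3 higher (median log2 fold change -1.75). *Cyp2c55* stood at 112, 235 and 60.4 CPM against 6580, 4879 and 7504 CPM (log2 fold change -5.54 with SE 1.16, edgeR adjusted p 0.00707), and the UDP-glucuronosyltransferase gene *Ugt2b5* at 0, 0.165 and 0.0703 CPM against 109, 65.9 and 67.5 CPM. *Cyp3a44* and *Cyp3a25* had no read in AOM/DSS and 1499 and 791 reads in recovery, at least 652.5-fold and 344-fold lower, and *Cyp2c66* had 1 read against 798 (ratio 1042, interval 186.5 to 41210). The *Cyp2c*, *Cyp3a* and *Ugt2b* families hold near-identical copies, so that the value of a single member is uncertain. The higher members *Cyp2c68*, *Cyp2c67* and *Cyp2d34* (log2 fold changes 2.90, 2.90 and 1.27) each lost their call without recovery replicate 2 and without recovery replicate 3, and *Cyp2d34* also without AOM/DSS replicates 1 or 2 or recovery replicate 1, *Cyp2c67* also without AOM/DSS replicate 3.

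Of 33 fatty acid and ketone genes, 18 were called lower and 1 higher (median log2 fold change -0.95), and 13 to 17 were called lower without any 1 *Cldn2*KO library. *Angptl4*, an inhibitor of lipoprotein lipase, stood at 1.85, 1.42 and 1.02 CPM against 91.2, 39.7 and 17.2 CPM, and *Fabp2*, a fatty acid carrier of enterocytes, at 23.6, 21.8 and 15.6 CPM against 563, 405 and 770 CPM. The member called higher was *Oxct1*, which activates acetoacetate for oxidation and rose from 164, 152 and 209 CPM to 383, 455 and 368 CPM (log2 fold change 1.20 with SE 0.22, edgeR adjusted p 0.0029).

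Of 33 colonocyte transport genes tested, 9 were called lower, against 8.68% of all genes, and 3 higher, near the 8.62% over all genes. *Car1*, a carbonic anhydrase of surface colonocytes, stood at 638, 1061 and 391 CPM against 12747, 8173 and 32401 CPM (log2 fold change -4.67 with SE 0.83, edgeR adjusted p 0.00266). *Slc13a1*, a sulfate carrier, stood at 0.39, 0.691 and 0.879 CPM against 166, 79.7 and 67.7 CPM, and *Slc9a3*, the apical sodium-proton exchanger, at 22.1, 13.3 and 19.4 CPM against 585, 512 and 267 CPM (edgeR adjusted p 9.98e-07 and 0.00179). *Guca2a*, which encodes guanylin, fell by 3.78 on the log2 scale. The 3 higher genes were the calcium channel gene *Trpv6* (42.4, 28.6 and 43.5 CPM against 0.106, 0.0464 and 0.0494 CPM, log2 fold change 9.05 with SE 0.31, edgeR adjusted p 7.25e-09), the potassium-proton pump gene *Atp12a* (437, 915 and 387 CPM against 0.581, 1.81 and 2.47 CPM, edgeR adjusted p 1.71e-06) and the water channel gene *Aqp4* (271, 354 and 299 CPM against 26.7, 23.5 and 65.5 CPM, edgeR adjusted p 0.000264). Sodium channel genes *Scnn1a* and *Scnn1g* and the chloride exchanger gene *Slc26a3* were not called (edgeR adjusted p 0.342, 0.928 and 0.57).

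Secretory genes fell in part. Of 24 goblet cell genes, 5 were called lower and 1 higher. *Muc2*, the main gel-forming mucin gene, stood at 1539, 1304 and 1655 CPM against 4815, 5801 and 4019 CPM (log2 fold change -1.70 with SE 0.35, edgeR adjusted p 0.00555), and its glycosyltransferase gene *B3gnt6* at 1.66, 1.58 and 1.37 CPM against 43.4, 41.4 and 31.4 CPM. The goblet cell factor *Spdef* fell by 1.78 and *Retnlb* by 4.26 on the log2 scale, while the transmembrane mucin gene *Muc1* rose (log2 fold change 3.35, edgeR adjusted p 0.00856). *Retnlb* was not called by DESeq2. Of 22 enteroendocrine genes, 9 were called lower and 2 higher. The neurotensin gene *Nts* stood at 0.488, 0.362 and 0.457 CPM against 54.3, 41.3 and 24.9 CPM (edgeR adjusted p 0.00011), the secretin gene *Sct* at 3.61, 1.35 and 0.949 CPM against 34.5, 28.5 and 59.6 CPM, and the somatostatin gene *Sst* fell by 2.76 on the log2 scale. *Insl5*, an insulin-like peptide of distal L cells, rose from 6.92, 6.45 and 0.84 CPM to 42.5, 64.4 and 30.7 CPM (log2 fold change 3.28 with SE 0.83, edgeR adjusted p 0.0187) and lost its call without recovery replicate 2. Lower endocrine calls fell to 5 or 6 without AOM/DSS replicates 1, 2 or 3 or recovery replicate 2. No tuft cell gene of 11 was called by edgeR, while 2 had an unadjusted p under 0.05 and DESeq2 called 2 and limma-voom 3.

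Of 26 antimicrobial genes, 5 were called higher and 6 lower, and 3 to 5 were lower without any 1 *Cldn2*KO library. The regenerating family lectin gene *Reg3b* fell and stood at 0.634, 0.527 and 2.88 CPM against 2734, 4661 and 824 CPM (log2 fold change -10.96 with SE 2.59, edgeR adjusted p 0.0148, not called without AOM/DSS replicate 1). *Reg1*, at 2.48, 4.64 and 0.494 CPM in recovery, had no read in AOM/DSS and was at least 68.3-fold lower. *Reg3b* and its neighbours are close copies and uncertain as single genes. Among the higher members, the secreted protease inhibitor gene *Wfdc2* rose from 14.5, 24.8 and 23.2 CPM to 256, 218 and 222 CPM (log2 fold change 3.48, edgeR adjusted p 0.000103) and *Slpi* by a log2 fold change of 3.56. Among 11 Paneth cell genes 3 were called higher (2 to 5 without any 1 *Cldn2*KO library), and the lectin gene *Mptx1* was among the largest rises of the comparison, with 853, 569 and 478 CPM against 0.211, 0.139 and 0.0988 CPM (log2 fold change 12 with SE 1.66, edgeR adjusted p 0.000699). The lysozyme gene *Lyz1* stood at 501, 8.73 and 362 CPM in AOM/DSS against at most 0.494 CPM in recovery (edgeR adjusted p 0.00847), so that replicate 2 lay far below the other 2. Without replicate 2, its log2 fold change was 9.94 (edgeR adjusted p 0.00168) against 9.38 with it.

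Of 39 Wnt target and crypt stem cell genes tested, 14 were called higher and 1 lower, with a median log2 fold change of 1.74, and the AOM/DSS libraries were split. The count of higher calls ran from 1 to 16 without any 1 *Cldn2*KO library. *Axin2*, a feedback target of the Wnt pathway, rose from 4.54, 3.43 and 17.3 CPM to 59, 30 and 72.6 CPM (log2 fold change 2.68 with SE 0.79, edgeR adjusted p 0.0373). *Rspo3*, a stromal Wnt amplifier, rose from 0.845, 1.3 and 0.889 CPM to 4.54, 7.41 and 3.66 CPM (log2 fold change 2.35, edgeR adjusted p 0.003). Both rose in all 3 AOM/DSS libraries. *Lgr5*, the marker of crypt base stem cells, stood at 21.2, 3.85 and 32.9 CPM against 2.43, 0.835 and 7.21 CPM and was not called (edgeR adjusted p 0.162), nor were *Myc*, *Sox9*, *Ccnd1*, *Ctnnb1* or *Apc*. *Axin2* lost its call without AOM/DSS replicates 1 or 3, recovery replicates 1 or 2, and WT recovery replicates 1 or 3. The call was also lost with the sex covariate, with no filter on low counts, against a 2-fold change and at an adjusted p under 0.01.

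Several Wnt inhibitor genes were far lower in AOM/DSS replicate 2 than in replicates 1 and 3. *Notum*, a Wnt deacylase (ENSMUSG00000042988, chromosome 11, 120653788 to 120661175, minus strand), stood at 39.9, 0.263 and 42.1 CPM in AOM/DSS against 0, 0 and 0.247 CPM in recovery (log2 fold change 8.28 with SE 2.41, edgeR adjusted p 0.0374). *Dkk2* stood at 17.2, 0.428 and 20.8 CPM against at most 0.0988 CPM, and *Apcdd1* at 44.7, 0.922 and 49.5 CPM against at most 0.346 CPM (edgeR adjusted p 0.0346 and 0.0358). *Nkd1*, an intracellular inhibitor, stood at 101, 9.42 and 82.4 CPM against at most 3.57 CPM. In replicates 1 and 3 these genes lay far above every recovery library, and in replicate 2 *Notum*, *Dkk2* and *Apcdd1* were below 1 CPM. *Wif1*, with 98.9, 1.38 and 141 CPM, and *Prox1*, with 76.8, 3.19 and 92.7 CPM, followed the same split and were not called (edgeR adjusted p 0.0669 and 0.0703). Without replicate 2, both were called (0.0193 and 0.0207), and the log2 fold changes of *Notum*, *Dkk2*, *Apcdd1* and *Nkd1* were 8.85, 7.74, 7.35 and 4.92 (edgeR adjusted p 0.01, 0.0108, 0.0109 and 0.0185). The calls of *Notum*, *Dkk2* and *Apcdd1* were lost without any 1 of the other 5 *Cldn2*KO libraries. *Notum* also overlaps an antisense gene.

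Among the 47 genes of replicate 2 below both other AOM/DSS replicates were also the matrix protease gene *Mmp7* (81.7, 0.856 and 82.7 CPM), the Wnt ligand gene *Wnt10a* (10.1, 0.0988 and 8.4 CPM) and the defensin gene *Defa24*, beside *Lyz1*. Of the 47, 18 were called in the comparison, and 32 without replicate 2. *Mmp7* was not called with it or without it (edgeR adjusted p 0.257 and 0.112), and *Wnt10a* was called in both (0.0325 and 0.0106). Without replicate 2, 16 of the 39 Wnt and stem cell genes were called higher. The count was 3 without AOM/DSS replicate 1, 1 without AOM/DSS replicate 3, 2 and 1 without recovery replicates 1 and 2, 4 with no filter on low counts, and between 11 and 22 under the other settings that kept the 12 libraries, the threshold of 0.05 and no fold threshold, or changed the set of groups. Without any 1 WT library it was 6 to 23, with 6 without WT recovery replicate 1. In WT, replicate 1 of the AOM/DSS group had the same low *Notum* (0.147 CPM, against 24.2 and 101 CPM in the others). *Cldn2*KO replicate 2 also had the highest summed level of smooth muscle genes (9579 CPM against 4633 and 4265 CPM) and of fibroblast genes (2298 CPM against 970.5 and 1006 CPM), and the part of tissue composition in the split was not tested.

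**Figure D3:**
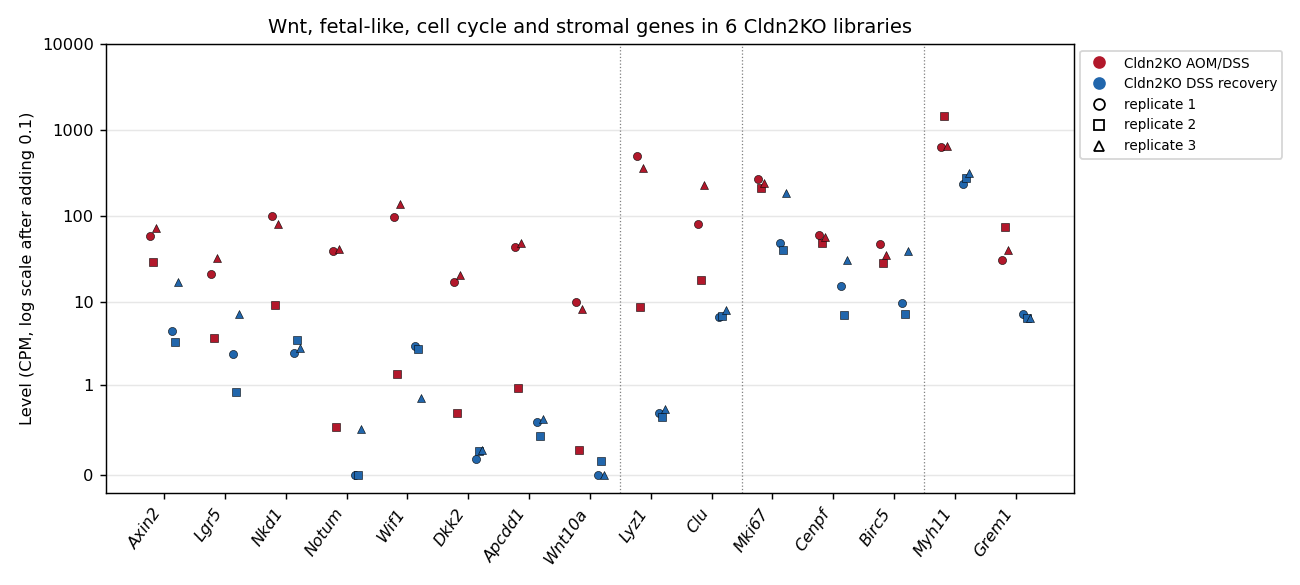
Level of 15 genes in each *Cldn2*KO library (y axis, CPM on a log scale after adding 0.1; red, AOM/DSS; blue, recovery; symbols mark replicates), with Wnt genes, fetal-like and Paneth genes, cell cycle genes and stromal genes from left to right. For *Notum*, *Dkk2* and *Apcdd1* the squares of AOM/DSS replicate 2 lie below 1 CPM beside the recovery libraries, and for *Mki67* the triangle of recovery replicate 3, at 189 CPM, lies close to the AOM/DSS libraries.

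Calls of cell cycle genes depended on recovery replicate 3. Of 32 mitotic genes, 31 had a positive log2 fold change, with a median of 1.09, and 3 were called (*Cenpf*, *Cenpe* and *Ckap2*, log2 fold changes 1.63, 1.43 and 1.57). *Mki67* stood at 275, 211 and 244 CPM against 48.6, 41.3 and 189 CPM (log2 fold change 1.39 with SE 0.47, edgeR adjusted p 0.0666), and *Birc5*, which encodes survivin, at 48, 28.5 and 35.7 CPM against 9.83, 7.24 and 40.1 CPM (edgeR adjusted p 0.229). Recovery replicates 1 and 2 lay far below AOM/DSS, and recovery replicate 3 near it. Without recovery replicate 3, *Mki67* and *Birc5* were called (log2 fold changes 2.44 and 2.13, edgeR adjusted p 0.000101 and 0.000767). Without recovery replicate 3, 29 of the 32 mitotic genes and 24 of 40 DNA replication genes were called higher, against 3 and 1 with it. Limma-voom with sample weights, which gives a library that stands apart less weight, called 29 and 20. *Cenpf* and *Cenpe* were not called without AOM/DSS replicates 1 or 3 or recovery replicate 1, and *Cenpe* also without recovery replicate 2.

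The shares of p53 targets called higher and lower lay near those over all genes. Of 30 p53 targets, 3 were called higher, *Phlda3*, *Eda2r* and *Pmaip1* (log2 fold changes 1.89, 1.77 and 1.10), and 3 lower, *Gadd45a*, *Plk3* and *Sesn2* (-1.31, -1.88 and -1.37), and the counts ran from 1 to 4 and from 0 to 3 without any 1 *Cldn2*KO library. Only *Eda2r*, a death receptor, kept its call without each *Cldn2*KO library in turn. *Cdkn1a*, the p53-induced cell cycle inhibitor, stood at 234, 125 and 153 CPM against 173, 280 and 206 CPM and was not called (edgeR adjusted p 0.329). Of 22 apoptosis genes, 3 were called lower and 1 higher, against 8.68% and 8.62% of all genes. The lower ones included the caspase inhibitor gene *Xiap* (141, 144 and 159 CPM against 230, 267 and 291 CPM, edgeR adjusted p 0.00962) and *Casp8* (log2 fold change -0.57), which lost its call without AOM/DSS replicates 2 or 3 or recovery replicates 2 or 3. Among 22 necroptosis and pyroptosis genes, *Zbp1*, a sensor of Z-form nucleic acids, rose from 7.77, 5.48 and 15 CPM to 73.1, 61 and 72.6 CPM (log2 fold change 2.87 with SE 0.56, edgeR adjusted p 0.00478) and *Il18* from 37.3, 30.6 and 29.5 CPM to 106, 118 and 126 CPM (edgeR adjusted p 0.00057). *Gsdme*, a pore-forming gasdermin gene, fell by 2.77 on the log2 scale.

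Of the ligands of the EGF receptor, *Ereg*, *Hbegf* and *Egf* were called lower in AOM/DSS, and *Areg*, *Tgfa*, *Btc*, *Nrg1* and *Nrg4* were not called (edgeR adjusted p 0.177 to 0.694). *Ereg*, which encodes epiregulin, stood at 3.22, 6.88 and 5.2 CPM against 11.5, 27.2 and 65 CPM (log2 fold change -2.75 with SE 0.82, edgeR adjusted p 0.0383), *Hbegf* at 19.9, 13.3 and 17.9 CPM against 25.3, 66.9 and 111 CPM (-1.99, edgeR adjusted p 0.0358), and *Egf* at 2.05, 2.93 and 3.9 CPM against 7.24, 7.8 and 3.66 CPM (-1.07, edgeR adjusted p 0.0481). For *Ereg* and *Hbegf* the groups did not overlap, and for *Egf* recovery replicate 3 lay within the AOM/DSS range. All 3 lost their call without each AOM/DSS library and without recovery replicate 2, and in other fits as well. *Errfi1*, a feedback inhibitor of the receptor, fell from 131, 212 and 286 CPM to 77.4, 58.4 and 85.9 CPM (log2 fold change -1.50 with SE 0.33, edgeR adjusted p 0.00798) and kept its call without each library. The receptor genes *Egfr*, *Erbb2* and *Erbb3* and the targets *Dusp6* and *Spry2* were not called (edgeR adjusted p 0.356 to 0.913), and *Etv4*, an ETS factor downstream of the pathway, rose (log2 fold change 2.30, edgeR adjusted p 0.0188, lost without recovery replicate 2). *Lrig1*, another feedback inhibitor of the receptor, was called higher (log2 fold change 0.93, edgeR adjusted p 0.0321, lost without AOM/DSS replicates 2 or 3 or recovery replicates 1 or 2). In all, 4 of 19 members were lower and 2 higher, and 1 to 3 were lower without any 1 *Cldn2*KO library.

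Genes of the fetal-like state that follows injury were called higher more often than lower. Of 26 tested, 17 had a positive log2 fold change, with a median over the list of 0.38. In all, 5 were called higher and 1 lower, against 8.62% and 8.68% of all genes, and 2 to 4 were higher without any 1 *Cldn2*KO library. The member called lower was *Tm4sf4* (log2 fold change -1.87, edgeR adjusted p 0.0078). The annexin gene *Anxa3* rose from 74.9, 96.7 and 102 CPM to 421, 422 and 346 CPM (log2 fold change 2.12 with SE 0.19, edgeR adjusted p 1.65e-05), and *Clu*, a marker of revival stem cells, from 6.66, 7.01 and 8.15 CPM to 81.1, 18.3 and 234 CPM (log2 fold change 3.93, edgeR adjusted p 0.00669). *Ly6a*, which encodes Sca-1, stood at 712, 582 and 670 CPM against 156, 315 and 390 CPM (log2 fold change 1.19, edgeR adjusted p 0.0341) and lost its call without any AOM/DSS library and without recovery replicates 1 or 2. Outside this list, the epithelial membrane protein gene *Emp1* fell from 1809, 3013 and 4274 CPM to 356, 204 and 251 CPM (log2 fold change -3.49 with SE 0.42, edgeR adjusted p 0.000163). *Emp1* is not in the counts above and was placed here after its value was seen.

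Of 24 junction genes tested, 2 were called higher, near the 8.62% over all genes, and 4 lower, against 8.68% of all genes. Without any 1 *Cldn2*KO library, 1 to 3 were lower. *Cldn14* rose from 0.37, 0.418 and 0.0988 CPM to 4.15, 5 and 3.69 CPM (log2 fold change 3.83 with SE 0.58, edgeR adjusted p 0.000757), and the cingulin-like gene *Cgnl1* from 12.7, 21.5 and 14.4 CPM to 69.7, 59.8 and 106 CPM (2.27, edgeR adjusted p 0.000248). *Cldn15*, the other pore-forming claudin of the gut, stood at 55, 56.2 and 39.3 CPM against 131, 78.5 and 170 CPM (-1.33, edgeR adjusted p 0.0332), and *Cldn23* at 36.5, 31.4 and 43.5 CPM against 58.1, 100 and 84.8 CPM (-1.13, edgeR adjusted p 0.0108). *Cdh17* (-0.71) and *Cgn* (-0.49) fell less. *Cldn15* lost its call without any *Cldn2*KO library but recovery replicate 2, *Cldn23* without recovery replicate 2, *Cdh17* without AOM/DSS replicates 2 or 3 or recovery replicates 2 or 3, and *Cgn* without any *Cldn2*KO library but recovery replicate 1. *Cldn3*, *Cldn7*, *Ocln*, *Tjp1* and *Cdh1* were not called (edgeR adjusted p 0.21 to 0.995).

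Of the squamous epithelium list, *Tgm3*, *Casp14*, *Trpv3* and *Krt13* were called higher in AOM/DSS. *Tgm3*, a transglutaminase of cornified layers, stood at 539, 805 and 514 CPM against 0.37, 0.742 and 0.148 CPM (log2 fold change 10.49 with SE 0.82, edgeR adjusted p 9.77e-06), *Casp14* at 20.5, 13.7 and 19.2 CPM against at most 0.139 CPM, and the ion channel gene *Trpv3* at 53.7, 70.8 and 80.6 CPM against at most 1.39 CPM (edgeR adjusted p 5.27e-06 and 2.57e-06). *Krt13* was also called (log2 fold change 5.20, edgeR adjusted p 0.0269), at 16, 1.75 and 21.1 CPM, and lost its call without AOM/DSS replicates 1 or 3 or recovery replicates 1 or 2, but not without AOM/DSS replicate 2 (log2 fold change 5.71, edgeR adjusted p 0.0133). These are 4 of 15 tested members, and 3 to 9 were called without any 1 *Cldn2*KO library, while the defining squamous genes *Krt5*, *Trp63*, *Lor*, *Ivl* and *Krt1* were too low to test. Outside this list, *Tmprss13*, a membrane serine protease (13.7, 18.2 and 17.2 CPM), *Klk15*, a kallikrein, and *St8sia5*, a sialyltransferase, had no read in recovery and were at least 337-fold, 170-fold and 141-fold higher. *Sval1*, at 742, 695 and 627 CPM against 7.03, 7.89 and 12.2 CPM, and *Sycn*, a syncollin gene that overlaps another gene, at 720, 776 and 479 CPM against 41, 37.1 and 45.6 CPM, were among the largest rises in CPM (edgeR adjusted p 6.62e-05 and 0.00199). *Cela1* was the only 1 of 10 pancreas genes that could be tested and rose by a log2 fold change of 2.75.

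Other large falls in fold or CPM were found in *Abca12*, *Tmigd1*, *Malrd1* and *Ceacam1*. *Abca12*, a lipid transporter, stood at 0.0975, 0.329 and 0.176 CPM against 142, 152 and 234 CPM (log2 fold change -9.66 with SE 0.39, edgeR adjusted p 2.55e-08), *Tmigd1* at 1.95, 2.37 and 2.18 CPM against 981, 588 and 727 CPM (-8.46, edgeR adjusted p 2.24e-07), and *Malrd1* at 0.0488, 0.362 and 0.105 CPM against 160, 124 and 37.3 CPM (-9.13, edgeR adjusted p 1.11e-05). *Krt20*, a keratin of differentiated colonocytes, fell less, from 1073, 1900 and 2469 CPM to 1055, 748 and 656 CPM (log2 fold change -1.15, edgeR adjusted p 0.0181). The adhesion gene *Ceacam1* stood at 1242, 1389 and 1335 CPM against 3134, 4537 and 4327 CPM (-1.60, SE 0.32, edgeR adjusted p 0.00475).

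Of 21 macrophage and dendritic cell genes, 12 were called higher and none lower, with a median log2 fold change of 1.95, and 11 to 14 without any 1 *Cldn2*KO library. *Mrc1*, the mannose receptor gene of resident macrophages, rose from 3.86, 2.69 and 2.32 CPM to 18.5, 18.2 and 21.9 CPM (log2 fold change 2.73 with SE 0.33, edgeR adjusted p 0.000177). *C1qc*, a complement component, rose from 2.75, 1.76 and 1.68 CPM to 13.3, 20.5 and 8.93 CPM (2.79, edgeR adjusted p 0.000552), and *Lyz2* from 10.7, 13.2 and 15.3 CPM to 68.9, 118 and 61.8 CPM (2.67, edgeR adjusted p 0.000325). The summed level of the list was 296 to 370.4 CPM against 124 to 164 CPM, with no overlap. *Trem2*, at 1.61, 2.17 and 0.774 CPM, rose from at most 0.264 CPM (3.14, edgeR adjusted p 0.00456).

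Of 24 B and plasma cell genes, 15 were called higher and none lower. *Jchain*, which joins IgA and IgM subunits, rose from 19.2, 15.7 and 13.3 CPM to 172, 152 and 331 CPM (log2 fold change 3.76 with SE 0.36, edgeR adjusted p 3.22e-05), and the kappa constant gene *Igkc* from 11.6, 14.2 and 13.3 CPM to 150, 142 and 183 CPM (3.60, edgeR adjusted p 2.35e-05). *Tnfrsf17*, the plasma cell receptor BCMA, had 57 reads against none, at least 14.6-fold higher. In addition, 47 of 69 tested immunoglobulin segments were called higher and 0 lower. *Jchain* and *Igkc* were high in all 3 AOM/DSS libraries. *Cr2*, at 5.41, 0.626 and 2.99 CPM, and *Ighd*, at 6.88, 0.428 and 2.67 CPM, were lowest in replicate 2. In all, 20 members were called without that library. The count was 8 to 12 without any 1 of the other *Cldn2*KO libraries, in the fit of 18 libraries, of 6 libraries, with the sex covariate and with no filter.

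Of 22 T and NK cell genes, 7 were called lower and 1 higher, and 14 were not called. *Gzma*, a granzyme gene of cytotoxic cells, stood at 0.536, 0.329 and 0.527 CPM against 14.6, 11.6 and 7.56 CPM (log2 fold change -4.60 with SE 0.77, edgeR adjusted p 0.00194). *Gzmb* stood at 1.22, 0.527 and 1.13 CPM against 7.19, 6.82 and 5.09 CPM, *Klrd1* at 0.927, 0.362 and 0.738 CPM against 4.86, 7.93 and 3.56 CPM, and *Cd3e* at 0.488, 0.132 and 0.352 CPM against 2.06, 1.95 and 1.63 CPM (edgeR adjusted p 0.00684, 0.00286 and 0.0104). *Cd4* was called higher (log2 fold change 1.71, edgeR adjusted p 0.0461) on 0.488, 1.32 and 0.492 CPM and lost its call without AOM/DSS replicates 2 or 3 or recovery replicates 2 or 3. *Foxp3*, *Ifng*, *Il17a* and *Prf1* were too low to test. Of 8 mast cell genes only the chymase gene *Cma1* was called, at 22, 20.8 and 15 CPM against no read, at least 386-fold higher (edgeR adjusted p 1.1e-05). Its defining partners *Cpa3*, *Kit* and *Fcer1a* were not called.

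Inflammatory cytokines changed in few members. Of 29 TNF and NF-κB genes, 3 were called higher and none lower, near the share of all genes. They were the chemokine genes *Cxcl5* (52.2, 17 and 53.9 CPM against 0.0528, 0.139 and 0.692 CPM, log2 fold change 7.09, edgeR adjusted p 0.00901), *Ccl7* and *Ccl20* (3.76 and 2.88), which attract neutrophils, monocytes and CCR6+ lymphocytes. The same 3 members were called without each *Cldn2*KO library. *Tnf*, at 10.4, 2.67 and 6.58 CPM against 0.845, 12 and 2.96 CPM, and *Il1b*, at 6.34, 2.67 and 5.31 CPM against 0.845, 0.882 and 2.77 CPM, were not called (edgeR adjusted p 0.857 and 0.298), and *Il6* stayed at or below 0.395 CPM and was not tested. Recovery replicate 2 was the highest library for *Tnf*. Among 13 neutrophil genes, *Cd177* rose from 31.4, 48.3 and 61.6 CPM to 278, 207 and 376 CPM (2.61, SE 0.31, edgeR adjusted p 0.000157) and *Ly6g* from 14.5, 63.7 and 31.4 CPM to 279, 234 and 191 CPM (2.68, edgeR adjusted p 0.022, lost without AOM/DSS replicate 1 or recovery replicates 1 or 3). The other 11 neutrophil genes tested, among them *S100a8*, *S100a9* and *Csf3r*, were not called, and *Elane*, *Mpo*, *Cxcr2* and *Fpr1* were too low to test.

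Of 15 genes of MHC class II presentation tested in *Cldn2*KO colon, 9 were called higher and 1 lower, with a median log2 fold change of 1.84, and 5 to 10 higher without any 1 *Cldn2*KO library. The summed level of the list overlapped between the groups, with 545 to 719 CPM in AOM/DSS and 544 to 699.6 CPM in recovery. *H2-Aa*, the α chain of I-A (ENSMUSG00000036594, chromosome 17, 34282744 to 34287827, minus strand), stood at 80, 71.6 and 54.6 CPM against 9.51, 8.45 and 13.9 CPM (log2 fold change 2.69 with SE 0.35, edgeR adjusted p 0.000291). *H2-Eb1*, the β chain of I-E (ENSMUSG00000060586, chromosome 17, 34305877 to 34316199, plus strand), stood at 23.2, 19.3 and 15.9 CPM against 2.32, 3.39 and 6.67 CPM (2.23, SE 0.34, edgeR adjusted p 0.000795). The groups did not overlap for either gene. The invariant chain gene *Cd74* rose from 5.39, 4.13 and 18.6 CPM to 61.8, 42.7 and 40.6 CPM (2.37, edgeR adjusted p 0.00655), and *Ciita*, the master activator of the class II genes, from 0.317, 0.325 and 0.79 CPM to 2.05, 2.96 and 2.18 CPM (2.32, edgeR adjusted p 0.00211). The endosomal protease gene *Lgmn* was the 1 member lower (-1.24, edgeR adjusted p 0.00508).

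In WT *H2-Aa*, *H2-Eb1* and *Cd74* fell. *H2-Aa* stood at 216, 101 and 132 CPM in WT AOM/DSS against 265, 576 and 432 CPM in WT recovery (log2 -1.50, edgeR adjusted p 0.00757). *H2-Eb1* stood at 35.6, 34.3 and 36.5 CPM against 62.3, 114 and 83.6 CPM (-1.29, edgeR adjusted p 0.0131). *Cd74* stood at 108, 67.6 and 127 CPM against 248, 361 and 252 CPM (-1.51, edgeR adjusted p 0.0388). The difference between genotypes was called for *H2-Aa* (log2 4.20, SE 0.48, edgeR adjusted p 0.0233) and *H2-Eb1* (3.52, SE 0.46, edgeR adjusted p 0.0453), which were the only 2 of 16605 genes (0.012%) called there, with 582 at an unadjusted p under 0.05. *H2-Ab1* and *Cd74* had differences of 3.52 and 3.87 that were not called (edgeR adjusted p 0.272 and 0.301). By level, *Cldn2*KO recovery was the low group, as its 8.45 to 13.9 CPM of *H2-Aa* lay below all 9 other challenged libraries. Of the class II list, 5 members were called higher and 7 lower in WT, with a median log2 fold change of -0.60. *H2-DMb2* and *H2-Ob* were called higher in AOM/DSS in both genotypes (log2 fold changes 3.05 and 2.53 in *Cldn2*KO, 3.32 and 3.97 in WT). Both lost their *Cldn2*KO call without AOM/DSS replicates 1 or 3 or recovery replicates 1 or 2. The 2 calls between genotypes were lost with all 18 libraries in the fit and with the sex covariate (adjusted p 0.116 and 0.135), and DESeq2 called 15 genes, of which 7 were of the class II list. Without 1 library the count ran from 0 to 5, with 0 without *Cldn2*KO AOM/DSS replicates 1 or 2, *Cldn2*KO recovery replicates 1 or 2, WT AOM/DSS replicates 2 or 3 or WT recovery replicates 2 or 3, and 5 without *Cldn2*KO recovery replicate 3.

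**Figure D4:**
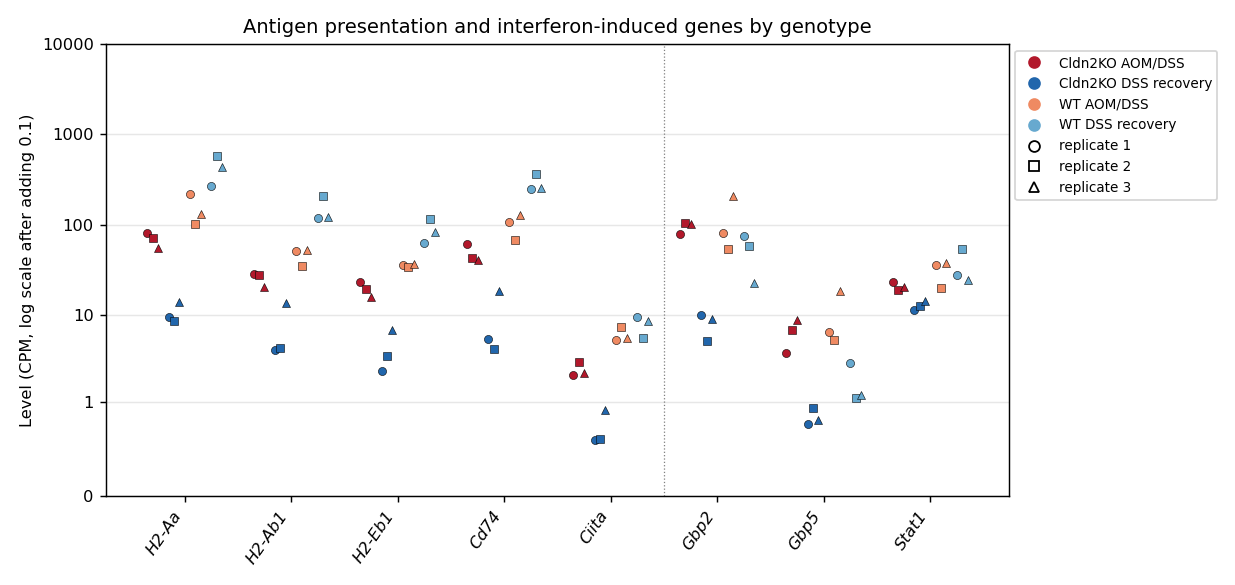
Level of 5 antigen presentation genes and 3 interferon-induced genes in the 12 challenged libraries (y axis, CPM on a log scale after adding 0.1; dark red and dark blue, *Cldn2*KO AOM/DSS and recovery; orange and light blue, WT AOM/DSS and recovery; symbols mark replicates). *Cldn2*KO recovery is the lowest group for *H2-Aa* (8.45 to 13.9 CPM), and WT recovery the highest (265 to 576 CPM).

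Of 44 interferon-induced genes tested, 40 had a positive log2 fold change, with a median of 1.09, and 6 were called higher and none lower. Guanylate-binding protein genes led, with *Gbp2* at 78.2, 104 and 101 CPM against 9.93, 5.01 and 8.89 CPM (log2 fold change 3.57 with SE 0.56, edgeR adjusted p 0.00122). *Gbp5* stood at 3.76, 6.78 and 8.69 CPM against 0.528, 0.835 and 0.593 CPM (3.28, edgeR adjusted p 0.00242), and *Gbp3* at 15.5, 22.8 and 29.1 CPM against 3.49, 2.09 and 3.61 CPM (2.88, edgeR adjusted p 0.00197). *Gbp7*, *Irgm2* and *Zbp1* were the other 3. *Isg15*, an induced ubiquitin-like protein gene, stood at 13.4, 17 and 18.2 CPM against 1.37, 1.02 and 15.5 CPM and was not called (edgeR adjusted p 0.28), as recovery replicate 3 reached the AOM/DSS level. Without recovery replicate 3, *Isg15* was called (log2 fold change 3.76, edgeR adjusted p 0.00267), and 19 of the 44 were called. The count was also 13 to 20 with upper-quartile scaling, in the fits of 18 or 6 libraries, with limma-voom and with DESeq2, and 12 to 15 without any 1 WT AOM/DSS library. In WT 2 were higher and 3 lower, with a median of -0.18, and no interferon gene was called between genotypes under any setting. The *Gbp* genes are close copies in a cluster on chromosome 3, and their single values are uncertain.

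The promoters of these 3 *Gbp* genes are shown for the interferon-stimulated element, with each match of GAAA, any 2 bases and GAAA on either strand in capitals. They are RefSeq windows of GRCm38.p6, 5′ to 3′ on the strand of the gene, at chr3:142620413-142620712 (*Gbp2*), chr3:142559794-142560093 (*Gbp3*) and chr3:142496684-142496983 (*Gbp5*), all on the plus strand.
Gbp2: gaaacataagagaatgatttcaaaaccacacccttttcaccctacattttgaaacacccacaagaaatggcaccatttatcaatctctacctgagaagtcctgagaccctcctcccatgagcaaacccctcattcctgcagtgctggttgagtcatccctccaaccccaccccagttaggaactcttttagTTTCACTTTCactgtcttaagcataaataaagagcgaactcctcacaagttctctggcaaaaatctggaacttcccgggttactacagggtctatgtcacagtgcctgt
Gbp3: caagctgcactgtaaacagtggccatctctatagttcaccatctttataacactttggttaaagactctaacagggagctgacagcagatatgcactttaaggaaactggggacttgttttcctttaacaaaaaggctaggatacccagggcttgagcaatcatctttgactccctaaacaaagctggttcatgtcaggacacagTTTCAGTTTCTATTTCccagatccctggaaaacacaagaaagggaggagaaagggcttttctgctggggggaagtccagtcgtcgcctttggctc
Gbp5: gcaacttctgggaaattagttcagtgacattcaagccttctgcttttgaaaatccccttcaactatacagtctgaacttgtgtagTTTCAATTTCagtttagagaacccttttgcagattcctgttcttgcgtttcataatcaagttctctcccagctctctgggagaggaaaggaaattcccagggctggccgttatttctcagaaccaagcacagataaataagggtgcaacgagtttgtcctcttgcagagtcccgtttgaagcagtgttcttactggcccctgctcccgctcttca
Of the 31 listed interferon genes with a promoter in the table, 23 (74.2%) held these letters, against 3.99% of all promoters. The share was 5.23% among genes called higher and 4.34% among genes called lower.

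Of 25 MHC class I genes tested, 2 were higher and 2 lower, near the shares over all genes (8.62% and 8.68%), with a median log2 fold change of 0.21. The peptide transporter gene *Tap1* (log2 fold change 1.19) and the immunoproteasome gene *Psmb9* (1.14) rose, overlap each other on opposite strands, and both lost their calls without AOM/DSS replicate 2 or recovery replicates 1 or 2, and *Tap1* also without AOM/DSS replicate 3. *H2-T3*, the thymus leukemia antigen of the gut epithelium, stood at 0.195, 0.461 and 0.141 CPM against 141, 87.2 and 101 CPM (-8.61, SE 0.41, edgeR adjusted p 1.19e-07), and *H2-Q2* fell by 2.06 on the log2 scale.

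AOM/DSS replicate 2 had the highest summed levels of smooth muscle genes and of fibroblast genes. Of 19 smooth muscle genes, 10 were called higher and none lower, with a median log2 fold change of 1.70. *Myh11*, the smooth muscle myosin gene, stood at 636, 1444 and 659 CPM against 238, 276 and 320 CPM (log2 fold change 1.72 with SE 0.54, edgeR adjusted p 0.0485), and *Cald1*, a caldesmon gene, at 130, 324 and 181 CPM against 41.8, 48.6 and 70.1 CPM (1.98, edgeR adjusted p 0.00461). *Synm* and *Kcnmb1* rose by 2.56 and 2.58 and overlap genes on the other strand. Every AOM/DSS library lay above every recovery library for *Myh11* and *Cald1*, but *Myh11* lost its call without any 1 of the 6 *Cldn2*KO libraries, and 6 members were called without AOM/DSS replicates 1 or 3 or recovery replicate 3, and 3 without AOM/DSS replicate 2 or recovery replicates 1 or 2. In WT none of the 19 was called by edgeR (3 at an unadjusted p under 0.05, 3 called by DESeq2 and 10 by limma-voom), with a median of 0.40, and none was called between genotypes.

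Of 37 fibroblast and collagen genes, 13 were called higher and 1 lower, with a median log2 fold change of 0.93. *Grem1*, a BMP antagonist of crypt-base fibroblasts, rose from 7.24, 6.5 and 6.52 CPM to 31.6, 76.2 and 40.8 CPM (log2 fold change 2.88 with SE 0.49, edgeR adjusted p 0.00211), and the fibronectin gene *Fn1* from 23.6, 33.4 and 50 CPM to 131, 283 and 141 CPM (2.37, edgeR adjusted p 0.00165). *Bmp5* (2.49) lost its call without AOM/DSS replicate 2 and without recovery replicates 2 or 3. The list had 4 or 5 higher calls without AOM/DSS replicate 2 or recovery replicates 1 or 2. *Ano1*, a chloride channel gene of interstitial cells and of some epithelia, rose from 20.8, 15.1 and 18.3 CPM to 285, 254 and 310 CPM (3.97, SE 0.26, edgeR adjusted p 1.46e-06). It was the 1 member higher among 28 enteric neuron and glia genes, of which 4 were lower, among them *Gal*, *Gfap* and *Ednrb* (-3.03, -2.03 and -1.94). *Gfap* lost its call without AOM/DSS replicates 1 or 3 or recovery replicates 2 or 3, *Gal* without AOM/DSS replicate 3, and 2 to 8 members were lower without any 1 *Cldn2*KO library. Of 15 endothelial genes none was called by edgeR or limma-voom and 1 by DESeq2, 2 had an unadjusted p under 0.05, and 14 had a positive log2 fold change. Of 8 adipose genes, *Cidec*, a lipid droplet protein gene, and *Lpl* were lower, with 1.66, 0.955 and 0.949 CPM against 33.9, 44.5 and 51.4 CPM for *Cidec* (-5.20, edgeR adjusted p 1.05e-05), and 2 to 4 members were lower without any 1 *Cldn2*KO library, while the defining genes *Lep* and *Plin1* were too low to test.

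Of 41 respiratory chain genes tested, 5 were called lower, and 36 were not called. All 41 had a negative log2 fold change, with a median of -0.45. The mitochondrially encoded *mt-Co1* stood at 16034, 23436 and 19221 CPM against 62723, 53794 and 46351 CPM (log2 fold change -1.47 with SE 0.31, edgeR adjusted p 0.00603). *mt-Nd1*, at 3775, 4572 and 3884 CPM against 7319, 7475 and 6301 CPM, fell by 0.79 on the log2 scale and lost its call without any AOM/DSS library and without recovery replicates 1 or 2. The count was 1 or 2 without any 1 *Cldn2*KO library but recovery replicate 3, without which it was 6, and also 2 with upper-quartile scaling, 10 in the fit of 6 libraries and with DESeq2, and 19 with limma-voom. Of 19 clock genes 5 were lower and 1 higher. *Cry1*, a clock repressor, stood at 9.36, 9.65 and 9.81 CPM against 31.9, 59.5 and 37.7 CPM (-2.16, SE 0.33, edgeR adjusted p 0.000758), and *Per1* fell by 1.25, while *Nr1d1* (REV-ERBα) rose from 20.2, 14.8 and 32.2 CPM to 71.6, 79.6 and 50.8 CPM (1.59, edgeR adjusted p 0.0356, lost without any AOM/DSS library and without recovery replicates 1 or 2). The hour of tissue collection is not given in the labels.

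Set beside the WT comparison, most of the *Cldn2*KO difference was common to both genotypes. The comparisons share no library, but both come from the fit of 12 libraries, with a common filter, scaling and estimate of spread. In WT, edgeR called 2322 genes with only the WT libraries fitted and 2040 with the sex covariate. In the main fit it called 3656 genes between WT AOM/DSS and WT recovery (22% of genes). Of these, 2085 were also called in *Cldn2*KO, which is 72.6% of the *Cldn2*KO calls and 57.0% of the WT calls, and 2080 of the 2085 had the same direction. Across all genes tested the log2 fold changes of the genotypes had a Pearson r of 0.88 and a Spearman rho of 0.756, as a description over genes, which are not independent replicates. The log2 fold change of *Slc51a*, for example, was -11.41 in *Cldn2*KO and -10.69 in WT, and that of *Hoxd13* 11.91 and 11.86. Lists with fewer calls in *Cldn2*KO than in WT included TNF and NF-κB genes (3 against 19 of 29 higher) and respiratory chain genes (5 against 30 of 41 lower), while smooth muscle had more (10 against 0 of 19 higher). No gene of these 3 lists was called between genotypes, so that the lists are not shown to differ. *Il1b* was called in WT (log2 fold change 4.06, edgeR adjusted p 0.0209) on 2.99, 5.34 and 76.8 CPM, a level set by replicate 3.

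**Figure D5:**
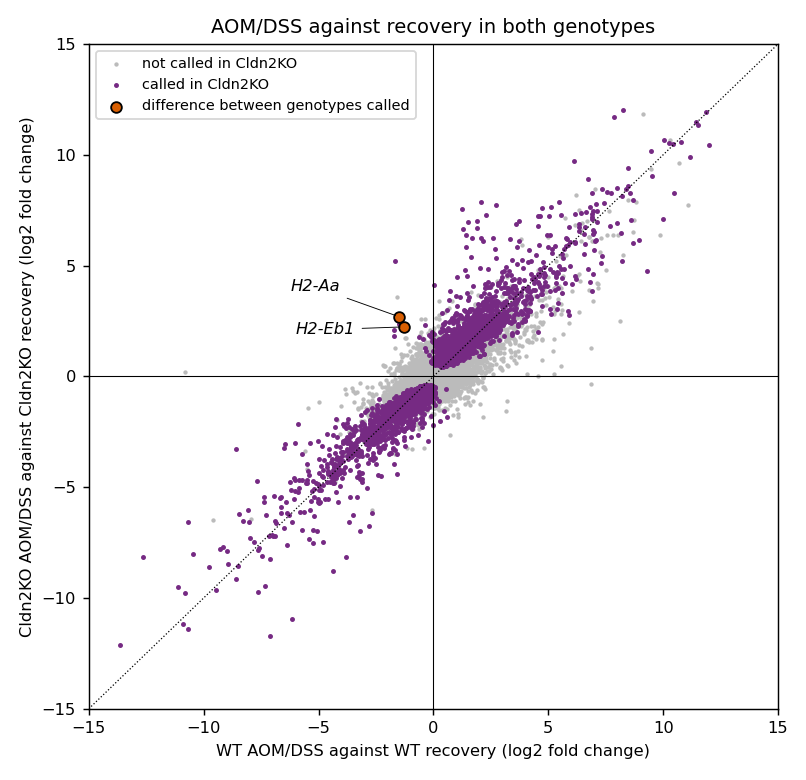
Log2 fold change of AOM/DSS against recovery in WT (x axis) and *Cldn2*KO (y axis) for the 16605 genes tested, with genes called in *Cldn2*KO in purple, others in grey, the 2 genes called between genotypes in orange and the line of equal change dotted. Most points lie along the dotted line (Pearson r 0.88), while *H2-Aa* and *H2-Eb1* lie in the upper left, higher in *Cldn2*KO and lower in WT.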

How the data were processed

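RNA of mouse colon was extracted with a Quick-RNA kit and sequenced by the authors. Read counts per gene were deposited by the authors, raw and per lane, for 18 libraries in 36 columns. The study's methods name TopHat2 and the submitters' processing notes name HISAT2 as aligner. The notes also name featureCounts of Subread and GRCm38, and versions, annotation and strand setting are not given in the sources used here. The authors tested these counts with DESeq2.

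Lanes were summed here. Of 47729 genes, 47310 matched GENCODE M21 of GRCm38, and the others took up to 0.0292% of a library. The 12 challenged libraries were fitted together in edgeR 4.0.16 (R 4.3.3) with filterByExpr (16605 genes kept, 31124 dropped), TMM scaling, 1 mean per group and the robust quasi-likelihood test, with Benjamini-Hochberg adjustment over all genes and calls at an adjusted p under 0.05. The biological coefficient of variation was 0.311. Differences between genotypes were tested as an interaction in the same fit. DESeq2 1.42.0 and limma 3.58.1 (voom with sample weights) were alternatives, beside other scalings, filters, thresholds, sets of libraries, a sex covariate and leaving out each of the 12 libraries. On simulated counts for the *Cldn2*KO comparison (16325 genes), 100 genes were changed 2-fold and 97 4-fold. The fit recovered 6% of the 2-fold and 75.3% of the 4-fold changes with 4 false calls. Far fewer genes changed there than were called in the data, so that these shares do not measure the power of this comparison. Folds against a group without reads used a floor of 3 reads over the group, and intervals and floors cover counting error only.

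The libraries compared, the gene lists and the tests were chosen with earlier results of these data known. Named genes were the 12 higher and 12 lower called, non-overlapping genes of largest fold with a mean of at least 5 CPM, the 10 and 10 of largest CPM difference, up to 4 called genes per list and direction, the genes called between genotypes, and *Cldn2*, *Hoxb13*, *Hoxd13*, *Hoxa13*, *Cdx2*, *Mki67*, *Axin2*, *Lgr5*, *Cdkn1a*, *Birc5*, *Egf*, *Ereg*, *Ly6a*, *Tnf*, *Il1b*, *Il6* and *Xist*. Predicted genes, pseudogenes and immunoglobulin segments were counted and not named by fold or CPM difference. Some genes that the rule names are not reported here. Other list members in the text, and *Emp1* beside the fetal-like genes, were placed there after their values were seen. Promoters are from a RefSeq table of GRCm38.p6.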

Additional observations from a re-analysis of the deposited data

Results flagged for a closer look

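*H2-Aa* and *H2-Eb1* are given here because their AOM/DSS to recovery difference was unequal in the genotypes by the interaction test. The difference in *Cldn2*KO minus that in WT was 4.20 on the log2 scale for *H2-Aa* (SE 0.48, edgeR adjusted p 0.0233) and 3.52 for *H2-Eb1* (SE 0.46, edgeR adjusted p 0.0453). For *H2-Aa* the 3 *Cldn2*KO AOM/DSS libraries lay above the 3 *Cldn2*KO recovery libraries, and the 3 WT AOM/DSS libraries below the 3 WT recovery libraries. Across 22 alternatives the value for *H2-Aa* ran from 3.92 to 4.57 and was called in 11, and that for *H2-Eb1* ran from 3.24 to 4.05 and was called in 8. By *Xist*, 1 of 3 libraries was male in each *Cldn2*KO group, 3 of 3 in WT AOM/DSS and 1 of 3 in WT recovery. With sex-linked expression as a covariate the values for *H2-Aa* and *H2-Eb1* were 4.03 and 3.32 (edgeR adjusted p 0.116 and 0.135). Single libraries were not tested as outliers, since each group held 3.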

How the results depend on the processing

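No paired analysis was possible because the labels of the treated groups carry no replicate numbers, and the numbers used here only name libraries. Against 2873 calls, the *Cldn2*KO comparison gave 4523 with limma-voom, 862 when tested against a 2-fold change and 1384 at an adjusted p under 0.01, and from 1867 to 3500 with 1 library left out. With upper-quartile scaling it gave 2954, and with DESeq2 3825. The WT comparison gave 2322 with only its own libraries, 2040 with the sex covariate, 912 against a 2-fold change and 1593 at 0.01, and from 2439 to 3840 with 1 library left out, against 3656. Against 2 calls, the interaction gave 15 with DESeq2, 5 with limma-voom, 1 with a filter of 1 CPM in 3 libraries, and 0 with all 18 libraries (732 at an unadjusted p under 0.05), with the sex covariate (447), against a 2-fold change (128) and at 0.01 (582), and from 0 to 5 with 1 library left out. The cause was not tested. Of 198 named genes called, 103 kept their call in each of the 24 alternatives that tested them, 95 lost it in at least 1, and none changed sign. Not every gene was tested in all 24, as *Tnfrsf17* was in 22. The log2 fold change of *Tnf* changed sign without *Cldn2*KO AOM/DSS replicate 1 (-0.197) and without recovery replicate 1 (-0.195), and ran up to 1.77 with 1 library left out. That of *Xist* changed sign with limma-voom (-0.388) and without AOM/DSS replicate 2 (-0.257), AOM/DSS replicate 3 (-0.188) or recovery replicate 1 (-0.389), and ran up to 0.778 with 1 library left out. In simulated counts with 3 libraries per group, most 2-fold changes were not called. Only 100 genes were changed 2-fold and 97 4-fold there, so that this does not give the share missed in these data.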

Other observations

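Of 30 ribosome biogenesis genes tested in *Cldn2*KO colon, 27 had a positive log2 fold change, with a median of 0.30, and 3 were called, near the share of 8.62% over all genes. Without any 1 *Cldn2*KO library 1 to 6 were called. *Utp20*, a component of the small subunit processome, stood at 91.5, 97.9 and 93.4 CPM against 30.9, 35.4 and 54.1 CPM (log2 fold change 1.23, SE 0.27, edgeR adjusted p 0.00813). *Ubtf*, a factor of ribosomal RNA transcription, stood at 165, 140 and 144 CPM against 96.4, 101 and 104 CPM (0.57, edgeR adjusted p 0.0134, lost without AOM/DSS replicate 1). The groups did not overlap for either gene.

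Of 25 matrix remodelling genes, 2 were called higher and 2 lower, near the shares over all genes (8.62% and 8.68%). Without any 1 *Cldn2*KO library, 1 to 3 were higher and 0 or 1 lower. *Timp4*, an inhibitor of metalloproteinases that overlaps *Syn2* on the other strand, stood at 9.31, 7.44 and 11.4 CPM against 0.581, 0.696 and 0.346 CPM (log2 fold change 4.10, SE 0.53, edgeR adjusted p 0.000276). *Mmp11*, a stromal protease gene, stood at 2.44, 2.54 and 3.02 CPM against 0.634, 0.418 and 0.79 CPM (2.11, edgeR adjusted p 0.0105, lost without recovery replicate 2). *Mmp28* and *Mmp15* were called lower (-1.01 and -0.77). *Mmp28* lost its call when any 1 of the 6 *Cldn2*KO libraries was left out, and *Mmp15* for 5 of the 6. Of 21 immediate early genes, 1 was called, the heat shock gene *Hspa1b* (-1.26, edgeR adjusted p 0.0302, lost without each of 4 *Cldn2*KO libraries, with 0 to 4 lower calls in the list).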
